A study of Drosophila melanogaster with 3 samples.

Results

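In fly embryos that carried a GFP-tagged CG17186, 4186 regions of the pooled ChIP-seq peak list stood just below the cut for reproducible peaks, and these regions are called the members here. Members were chosen by the signal that the authors deposited for each pooled peak: with the dm6 list sorted by signal, they were the peaks from the end of the reproducible set down to rank 8000, which is 17.9% of 23428 pooled peaks. None of the 4186 was in the reproducible set, and that set was identical to the pooled peaks ranked above them. They were set beside that reproducible set and beside an equal number of the next weaker peaks, also 4186. The embryos were 0 to 14 h old, whole, of both sexes, and came from a stable transgenic line that expresses CG17186 with GFP at its C-terminus. Chromatin was sheared by sonication to 200 to 800 bp and recovered with an antibody to GFP. All samples share this 1 genotype, 1 treatment and 1 age range, in 3 biological replicates, so no second condition was compared. The promoter and copy number of the transgene, and whether the untagged gene was still present, are not stated in the labels, and no expression was measured.

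ChIP-seq recovers the DNA that a protein is fixed to, and a peak caller reports each place where reads pile up together with the point of highest signal, the summit. The irreproducible discovery rate (IDR) procedure compares how replicates rank the same peaks and keeps those above a point where the ranks still match. Regions just under that point can be weakly or rarely bound sites, shoulders of stronger peaks, or background, and a rank list does not separate them. Promoters of broadly expressed fly genes are known for short elements that differ from the TATA box, among them the DNA replication-related element (DRE), bound by the activator DREF and overlapping the site of the boundary protein BEAF-32, and motif 1, bound by the zinc finger protein M1BP.

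A minority of the members held a known promoter or insulator motif at the summit, which the rank did not use. The following are the best-ranked members with each of the 5 motifs called below, shown as 30 bases around the match, read 5′ to 3′ on the strand that spells the motif, from the RefSeq dm6 assembly. Capitals mark the motif. Ing3 encodes a subunit of a chromatin-modifying complex, and its member (chrX:18653102-18653131, plus strand, rank 3827) holds the DRE. The member 57 bp upstream of mora (chr3R:24186303-24186332, minus strand, rank 3833) holds the M1BP motif. The one at CG4502 (chr2L:7204235-7204264, minus strand, rank 3832) holds motif 7. The first member of all, at CG11030 (chr2L:5724658-5724687, plus strand), holds the E-box. The member upstream of SIDL (chr3R:15219008-15219037, minus strand, rank 3830) holds the sequence bound by the insulator protein ZIPIC.
Ing3, DRE: gtgctcgataaTATCGATAtttaagcaatc
mora, M1BP motif 1: agtgagtgatGGTCACACTgcgggggctag
CG4502, motif 7: ttgttattttgCATCTCTAccgctgtcgcg
CG11030, E-box: ctctggccatcgCAGCTGactctagaacgc
SIDL, ZIPIC: acgcccttgacCAGGGCTGctgaaagcaca

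A different sequence was found where the members lay away from promoters. The word CACTGAGA is given in 8 of the best-ranked members of that kind, in dm6 coordinates and on the strand that spells it, with the word in capitals. They lay in introns of hth, which encodes the homeodomain cofactor Homothorax (chr3R:10564357-10564384, plus), of Itpr, the inositol trisphosphate receptor (chr3R:5518784-5518811, minus), of if, the integrin alpha subunit Inflated (chrX:16772997-16773024, plus), of Pura (chr3L:7635024-7635051, minus) and of a gene not counted as coding, nearest to CG14629 (chrX:1052929-1052956, minus). Others lay in intergenic sequence nearest to Dr, which encodes the homeodomain protein Drop (chr3R:29567096-29567123, plus), and to disco-r, a zinc finger gene (chrX:16158830-16158857, minus), and in an exon outside any coding or untranslated part, nearest to RFeSP (chr2L:1621047-1621074, minus).
hth: tcaaagtttaCACTGAGAatagggcgat
Itpr: aagatgtgtgCACTGAGAgaaaatatcg
if: cgagtaagtgCACTGAGAgaaagtcata
RFeSP: gagcaccctgCACTGAGAgaaatagtat
CG14629: ggtgcgactgCACTGAGAgaaatgaatg
Dr: ccttaaaatgCACTGAGAgaaaccagtg
disco-r: gagtcgctggCACTGAGAaaaattccat
Pura: tctagttctgCACTGAGAaaaaaacata

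The values that chose the members are given as a description only. Their pooled signal ran from 109.3 to 61.1 with a median of 77.2, beside medians of 167.8 in the reproducible set and 52.3 in the weaker peaks. At the upper edge there was no step: the last reproducible peak, near velo on 3L, had a signal of 109.33, and the first member, at CG11030, had 109.30. The lower edge was as smooth, with 61.14 for the last member, in an intron of mtd on 3R, and 61.12 for the first peak after it. The deposited q-values of the members ran from 0.0013 to 0.12 with a median of 0.022, and 2932 members (70.0%), down to rank 6752, were below 0.05. Peak width carried no information, since 4184 members were 410 bp wide. Read counts were not among the files used, which leaves the depth of each replicate unknown, and every interval below is an exact 95% binomial interval that covers counting error only. Peaks of 1 list are not biological replicates of each other. The p-values on shares of peaks therefore describe these peak lists, and where the replicates allow, the spread between them is given beside.

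Most members overlapped a peak in each of the long replicate lists, and fewer did so under stricter counts. A peak of replicate 1 overlapped 4071 members (97.3%), one of replicate 2 overlapped 3498 (83.6%) and one of replicate 3 overlapped 4032 (96.3%). All 3 lists covered 3257 members (77.8%, interval 76.5 to 79.1), against 98.5% of the reproducible set and 45.6% of the weaker peaks. Another 901 members were covered in 2 lists and 28 in 1, and none in 0. Of the 901, 662 were missed by replicate 2, which also had the shortest list (26139 peaks, against 30000 in each of the others). The pooled list holds the replicates' own reads, so overlap of this kind is a description and no independent support. A stricter count asked for a replicate summit within 100 bp of the member's summit, and then 1951 members (46.6%) were seen in all 3. With each replicate's list limited to its 8000 strongest peaks the share was 25.7%.

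Each replicate placed about the same part of the members above its own reproducible-set rank. The strongest overlapping peak was within a number of top ranks equal to the reproducible set for 796 members (19%) in replicate 1, for 915 (21.9%) in replicate 2 and for 840 (20.1%) in replicate 3. These were mostly not the same regions: 294 members (7.02%) stood there in all 3 replicates and 2499 (59.7%) in none. In the reproducible set the corresponding counts were 64.4% in all 3 and 0.446% in none. The member counts include 398 members that overlap a reproducible peak, for which the strongest overlapping peak can be the neighbour's. Each replicate's signal was divided by its median over the members covered in all 3 lists, or over the reproducible peaks for that set. The median coefficient of variation across the 3 replicates was then 26.6% for members and 19.7% for reproducible peaks. It was 27.7% for members that overlap no reproducible peak. Spearman's correlation of the signal between replicates over the 3257 members was 0.30 for replicates 1 and 2, 0.29 for 1 and 3 and 0.23 for 2 and 3. Without the members that overlap a reproducible peak it was 0.055, 0.037 and -0.027 over 2861 members, and with summits matched within 100 bp it was -0.0074, -0.021 and -0.028 over 1951. Choosing members from a narrow band of pooled signal narrows these correlations, and replicates share the caller and the genome, so they are descriptions.

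Members lay at promoters less often than reproducible peaks and more often than the weaker peaks. Promoter summits, at most 500 bp from a transcription start site (TSS), numbered 2207 among members (52.7%, interval 51.2 to 54.2), against 2955 reproducible peaks (77.5%) and 1414 weaker peaks (33.8%). Fisher's exact test, two-sided, with Benjamini-Hochberg adjustment over 14 comparisons as in all class shares here, gave an adjusted p of 2.2e-119 against the reproducible set and 6e-68 against the weaker peaks. Introns held 1252 members (29.9%), against 15.4% of reproducible peaks (adjusted p = 1e-53, Fisher's exact test) and 36.1% of weaker peaks (4e-09). Intergenic sequence held 541 members (12.9%), against 5.77% of reproducible peaks (5.1e-28) and 18.8% of weaker peaks (3.3e-13). The difference from the weaker peaks in introns was not past the threshold for the weaker part of the members alone (-2.48 points, adjusted p = 0.062, Fisher's exact test), and it was -9.84 points for the stronger part (7.5e-15).

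Coding exons were the class with the largest ratio. They held 77 members (1.84%), against 4 reproducible peaks (0.105%, adjusted p = 4.3e-17) and 305 weaker peaks (7.29%, adjusted p = 4.5e-34, Fisher's exact test). With promoters widened to 1000 bp the differences were 0.757 points from the reproducible set (adjusted p = 3.5e-07, Fisher's exact test) and -3.51 points from weaker peaks (3.5e-25). The remaining classes were small: 32 members lay in 5′ UTRs (0.764%, against 0.341% of reproducible peaks, adjusted p = 0.019), 38 in 3′ UTRs (0.908%, against 0.420%, 0.012) and 39 in other exons (0.932%, against 0.472%, 0.019, Fisher's exact test). Weaker peaks had a larger share in 3′ UTRs (1.98%, adjusted p = 7.2e-05, Fisher's exact test). Their shares in 5′ UTRs (0.956%, 0.44) and other exons (1.10%, 0.51) did not differ past the threshold.

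**Figure D1:**
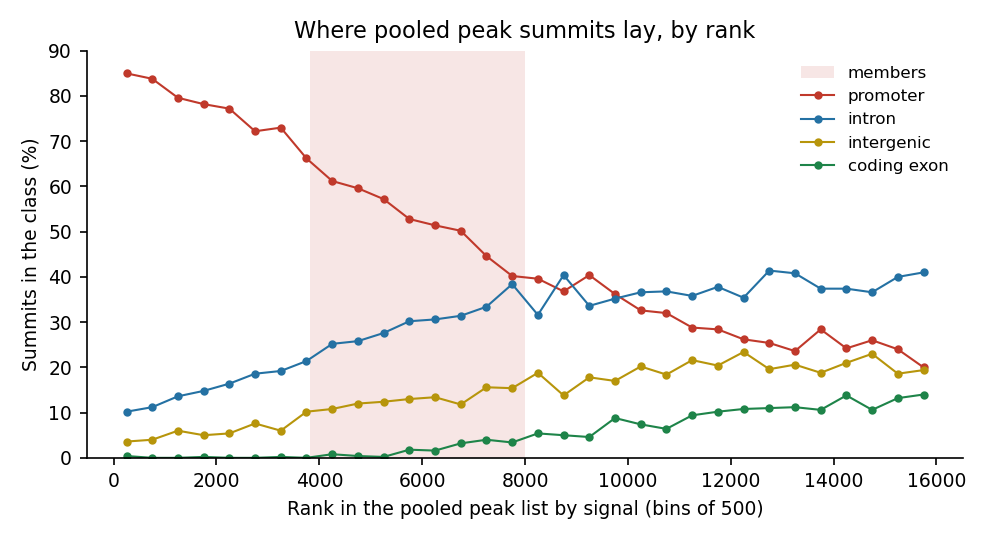
Share of pooled peak summits (%, y axis) in promoters, introns, intergenic sequence and coding exons, in bins of 500 ranks along the pooled list (x axis, strongest at the left), with the members' ranks shaded. Across the shaded ranks the promoter share falls from bin to bin, to 40.2% in the last of them, and the intron share rises to 38.4%.

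Within the members the same trend ran on. Among the 523 strongest, promoters held 62.9% (interval 58.6 to 67.1), and among the 523 weakest they held 40.3% (36.1 to 44.7). Over the same groups the intron share was 23.3% and 38.2%, and the share covered in all 3 replicate lists was 93.1% and 60.6%. Coding exons held 2 of the strongest 523 members and 17 of the weakest 523. The promoter share was 52.8% for members covered in 3 lists, 52.7% for those covered in 2 and 46.4% for the 28 covered in 1.

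The same shares were taken from each replicate's own ranks, which gives the spread between biological replicates. At the members' ranks promoters held 53.4% of summits in replicate 1, 39.4% in replicate 2 and 52.7% in replicate 3. At the reproducible set's ranks the shares were 77.6%, 75.7% and 77.2%, and at the weaker ranks 34.0%, 23.8% and 35.4%. Replicate 2 was lowest in each band and stood apart by more than 10 points in the members' and the weaker bands, while the bands did not overlap. The members' ranks were lower than the reproducible set's by a mean difference of -28.4 ± 6.92 points and higher than the weaker ranks by 17.4 ± 1.90 points (SD, n = 3). For coding exons the shares at the members' ranks were 1.91%, 7.57% and 4.25%, a mean of 4.58 ± 2.84% (SD, n = 3), against 0.280 ± 0.197% at the reproducible set's ranks. An exact paired test on 3 replicates cannot give a p under 0.25, so none was run.

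**Figure D2:**
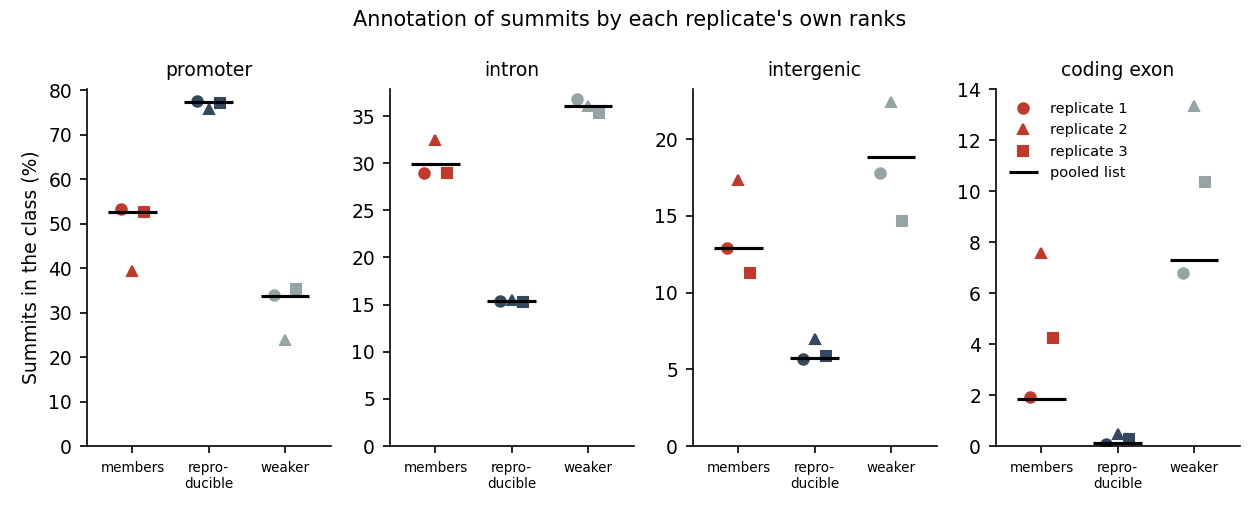
Share of summits (%, y axis) in 4 annotation classes, from each replicate's own peak list (circle, triangle and square for replicates 1, 2 and 3) at the ranks of the members, the reproducible set and the weaker peaks; the black line is the pooled list. At the members' ranks replicate 2 has 39.4% of summits at promoters, below 53.4% and 52.7% in the other replicates, and 7.57% in coding exons.

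Promoters shared by a pair of genes were a further point of difference. Head-to-head pairs, coding genes on opposite strands with TSSs at most 1000 bp apart, held 706 member summits (16.9%), against 1415 reproducible summits (37.1%, adjusted p = 2.3e-93) and 246 weaker summits (5.88%, adjusted p = 7.8e-58, Fisher's exact test). The difference from weaker summits was 6.07 points for the weaker members alone (adjusted p = 6.1e-16, Fisher's exact test). The order was the same among promoter summits alone: 32.0% of the members', against 47.9% of the reproducible set's and 17.4% of the weaker peaks' (adjusted p = 2e-30 and 7.6e-23, Fisher's exact test). Of summits within 500 bp of a coding TSS, 64.3% of 2107 members lay upstream of it, against 80.9% of reproducible summits and 55.2% of weaker summits, and the median position was -30 bp for members, -51 bp for reproducible summits and -20 bp for weaker summits.

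Some members were next to a stronger summit. In all, 720 members (17.2%) lay within 1000 bp of a reproducible summit, against 478 weaker peaks (11.4%, adjusted p = 4.6e-14, Fisher's exact test). Without members that overlap a reproducible peak the difference was 1.503 points (adjusted p = 0.016, Fisher's exact test), against 5.78 with them. The distances were not spread evenly. No member was closer than 199 bp, 371 (8.86%) were within 250 bp, and 404 were within 500 bp. Weaker peaks had the same pile, with 183 (4.37%) within 250 bp. The peak intervals of 398 members overlapped a reproducible peak (9.51%, against 4.75% of weaker peaks, adjusted p = 2.6e-17, Fisher's exact test). Members were spaced in the same way from each other, with 190 within 250 bp of another member and a smallest gap of 199 bp.

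**Figure D3:**
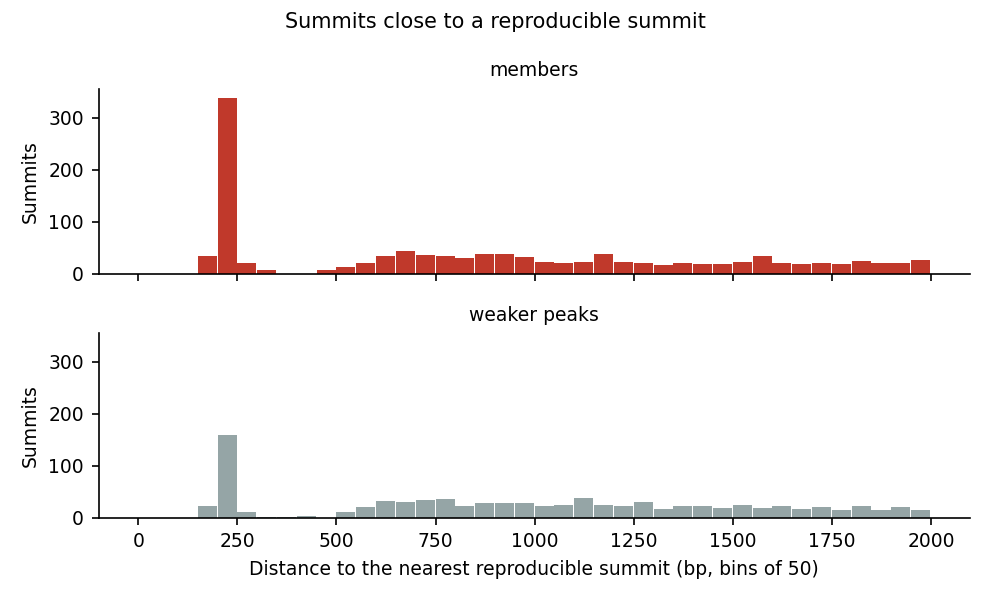
Number of summits (y axis) by distance to the nearest reproducible summit (x axis, bins of 50 bp, up to 2000 bp) for members (top) and weaker peaks (bottom). Both have a narrow pile between 199 and 250 bp, 371 members and 183 weaker peaks, and few summits from there to 500 bp.

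This spacing bears on the members with the largest replicate signal. Each replicate was given the signal of its strongest overlapping peak, and for a member beside a stronger peak that peak can be the neighbour's. The member in an intron of Lrch (rank 5998) had a relative signal of 4.30, 5.27 and 6.92 in replicates 1, 2 and 3, a mean of 5.50 ± 1.32 (SD, n = 3). A relative signal of 1 is the replicate's median over members covered in all 3 lists. This member lay 200 bp from a reproducible summit. The first member of the ranking at promoters, near Chchd2 and the ribosomal protein gene RpS5a, of which RpS5a also had a reproducible summit at its TSS, had 3.31, 3.30 and 3.68 and also lay 200 bp from one. The member in an intron of Raf, the kinase of the MAP kinase cascade, had 3.01, 3.01 and 3.46 at a distance of 199 bp. All 6 intron members and all 6 intergenic members picked by mean relative signal overlapped a reproducible peak, as did 8 of the 12 promoter members. The other 4 were a pair of members at fus, which encodes an RNA-binding protein, and a pair at upSET, which encodes a chromatin protein with a SET domain.

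Members that overlapped no reproducible peak were then ranked in the same way, a choice made after these values were seen. At promoters the relative signal was 1.77, 1.94 and 1.42 in replicates 1, 2 and 3 at osi (rank 4710), a mean of 1.71 ± 0.268 (SD, n = 3). Members at shg, the gene of E-cadherin, and at the neighbouring cpa, a capping protein gene, overlapped the same replicate peaks, which had 1.73, 1.41 and 1.83. At these places each replicate stood above its median over members covered in all 3 lists. Mcad, which encodes an acyl-CoA dehydrogenase, had 2.42, 1.51 and 1.30, and the member at rdx had 1.10, 2.75 and 1.35, with replicate 2 far above the others. In introns, at dlg1, which encodes a scaffold protein of cell junctions, the values were 1.91, 1.68 and 0.797. At cindr, an adaptor gene, they were 1.68, 0.523 and 1.88, so that replicate 2 was low where the other replicates were high. Intergenic members near Atet, an ABC transporter gene, had 1.13, 1.72 and 1.41, and those near fng, which encodes the Notch-modifying enzyme Fringe, 0.962, 1.75 and 1.39.

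Chromosomes were represented nearly evenly. The X held 664 members (15.9%), against 18.3% of reproducible peaks (adjusted p = 0.046 over 12 comparisons, Fisher's exact test) and 14.8% of weaker peaks (0.40). That call against the reproducible set was lost among members that overlap no reproducible peak (adjusted p = 0.07, Fisher's exact test). The small chromosome 4 held 36 members, 26.7 per Mb, against 19 reproducible peaks, 14.1 per Mb (adjusted p = 0.17, Fisher's exact test), and 25 weaker peaks.

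Of the 15 motifs searched, 5 were found at member summits more often than beside them. A window held a motif when it matched on either strand within 50 bp of the summit, and the comparison was with windows of the same length centred 300 bp to each side. The exact McNemar test, two-sided, took the larger p of the sides and was adjusted over the 15 motifs. The DRE, TATCGATA, was in 147 member windows (3.51%, interval 2.97 to 4.11), against 0.681% of flanking windows (adjusted p = 3.9e-16, exact McNemar test). The M1BP motif, GGTCACACT, was in 90 (2.15%), against 0.406% (1.2e-09). Promoter motif 7, CANCNCTA, was in 242 (5.78%), against 2.74% (1.8e-09). ZIPIC's CAGGGCTG was in 35 (0.836%), against 0.179% (0.00074), and the E-box CAGCTG in 288 (6.88%), against 4.81% (0.00074). In all, 721 members (17.2%) held at least 1 of the 5. The share of flanks with at least 1 was not counted. The 17.2% therefore includes matches of the kind found in flanks, at 4.81% of them for the E-box and 2.74% for motif 7. Of the 147 windows with the DRE, 2 also held the M1BP motif and 30 also held motif 7.

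The other 10 motifs did not pass in these windows. TATAAA, the TATA box, was in 13.2% of member windows, against 11.5% of flanks (adjusted p = 0.075, exact McNemar test). AACAGCAC, a word found in the strongest peaks of this list, was in 24 member windows (0.573%), against 0.538% of flanks (adjusted p = 1, exact McNemar test). GAGAGAG, a repeat bound by GAGA factor, was in 2.68%, against 2.45%, and CACACACA in 3.42%, against 3.09%. CAGGTAG, the site of the early activator Zelda, was in 0.526%, against 0.681%. CACATG, an E-box of the Twist type, was in 4.23%, against 4.79%. TAATTA, a homeodomain core, was in 5.85%, against 6.19%, and TGATAAG, the site of zinc finger factors of the GATA family, in 2.32%, against 2.05%. ACCGGTT, a Grainyhead site, was in 0.382%, against 0.478%, and AGGNGGC, the CTCF core, in 3.73%, against 4.28%. A match is a description of the sequence and not evidence that the factor was bound.

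For 4 of the 5 motifs the members' share lay between those of the other bands with both differences past the threshold. The motifs were chosen with earlier results of these data known. The p-values between bands, here and among promoter summits alone, therefore describe these lists and are no independent test. The DRE share of members, 3.51%, compares with 7.94% of reproducible summits (adjusted p = 2.2e-16 over 30 comparisons, Fisher's exact test) and 0.956% of weaker summits (1.1e-14). The M1BP motif was at 2.15%, against 4.93% (1e-10) and 0.836% (2.9e-06). Motif 7 was at 5.78%, against 9.31% (1.6e-08) and 3.15% (3.8e-08). ZIPIC's sequence was at 0.836%, against 2.36% (1.5e-07) and 0.382% (0.026). AACAGCAC was at 0.573% of member summits, against 1.97% of reproducible summits and 0.454% of weaker summits, which is a description, since the word was picked from the strongest peaks. The E-box was at 6.88%, against 8.39% of reproducible summits (0.026) and 6.31% of weaker summits (0.52). TATAAA was at 13.2%, against 11.3% of weaker summits (0.026), and CACATG at 4.23%, against 5.38% (0.035). The repeats were higher in members than in the reproducible set: GAGAGAG was at 2.68% of member summits, against 1.42% of reproducible summits (0.00023), and CACACACA at 3.42%, against 1.73% (7.2e-06). Beside the reproducible summits these repeats were at 2.88% and 4.26% of flanks.

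**Figure D4:**
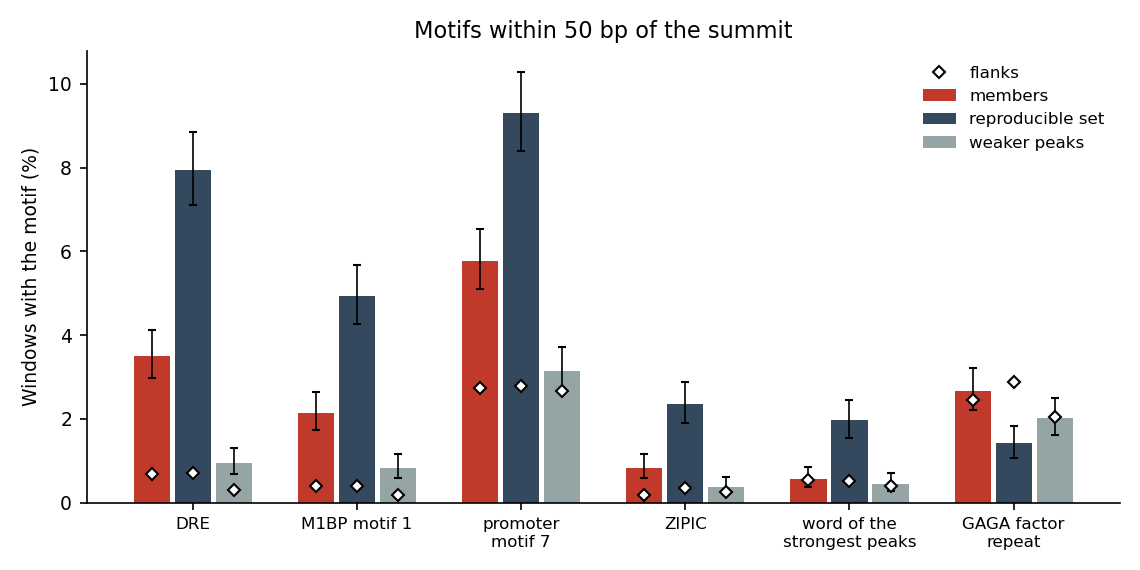
Share of windows within 50 bp of the summit that hold each motif (%, y axis; bars with exact 95% binomial intervals) in members, the reproducible set and weaker peaks; diamonds are the mean of the flanks 300 bp to each side. For the DRE the bars are 3.51%, 7.94% and 0.956%, and for the word of the strongest peaks the member bar, 0.573%, sits at its flanks.

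Since the bands differed in their share of promoters, the comparison was repeated among promoter summits alone, an alternative chosen after the first values were seen. The DRE was then at 6.21% of 2207 member promoters, against 9.98% of 2955 reproducible promoters (adjusted p = 7.5e-06, Fisher's exact test) and 2.05% of weaker promoters (2.9e-08). The M1BP motif was at 3.99%, against 6.26% (0.0014) and 2.33% (0.021). The ZIPIC difference from weaker peaks was no longer past the threshold (1.18%, against 0.849%, 0.68). For the E-box the difference from the reproducible set, called over all summits (6.88%, against 8.39%, 0.026), was not past it either (9.11%, against 9.78%, 0.68). By each replicate's own ranks, promoter summits in the members' band held the DRE at a mean of 4.94 ± 0.275% (SD, n = 3), against 9.51 ± 0.188% in the reproducible set's band. Within the members the DRE was in 4.49% of the strongest 1046 and 2.29% of the weakest 1046.

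Away from promoters none of these 5 motifs passed when the 15 were tested there alone. Of 1979 members there, 161 (8.14%) held at least 1 of them, a share for which no flank count was made. The E-box was in 87 windows (4.40%, against 4.35% of flanks) and motif 7 in 54 (2.73%, against 2.20%). The M1BP motif was in 2 windows and the DRE in 10 (0.505%, against 0.0505% of flanks, adjusted p = 0.05 over 30 tests at and away from promoters and 0.088 over the 15 there alone, exact McNemar test). TATAAA was the 1 motif of the 15 that passed there alone, in 14.5% of windows, against 10.4% of flanks. Its adjusted p was 0.0041 over the 15 there alone and 0.0016 over the 30 tests (exact McNemar test). By each replicate's own ranks it was at 13.3%, 11.5% and 10.9% of such summits in replicates 1, 2 and 3, against 11.1%, 10.4% and 11.3% of their flanks, so that replicate 3 had the opposite direction. Base composition moved with it: median GC was 39.6% in those summit windows and 43.6% in each flank, and its part in the result was not tested.

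All 8-base words were then compared between member summits and flanks with no motif chosen. Of 4666 words present in at least 20 member windows, 40 passed (0.857% of words tested), and all 40 were more frequent at the summit. The DRE led the list, and words overlapping it, the M1BP motif or the E-box were among the others. CACTGAGA overlapped none of the 5 motifs and was in 48 windows (1.15%), against 0.251% of flanks (adjusted p = 0.00079, exact McNemar test). Away from promoters it was first among all words, in 36 windows (1.82%, interval 1.28 to 2.51), against 0.253% of flanks (adjusted p = 0.016, exact McNemar test). At member promoters it was in 12 of 2207 windows (0.544%), against 0.249% of flanks (adjusted p = 0.43 over the 6 tests of this word, exact McNemar test).

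Because the word was picked from the members, the other bands are the places where it could be tested on peaks not used to find it, in an analysis added after the data were seen. Reproducible summits away from promoters held it in 21 of 859 windows (2.44%), against 0.291% of flanks (adjusted p = 0.00036, exact McNemar test). Weaker summits away from promoters held it in 30 of 2772 (1.08%), against 0.433% (0.045). By each replicate's own ranks the members' band had it at 1.71 ± 0.518% of summits away from promoters (SD, n = 3), against 0.358 ± 0.0883% of their flanks, higher at the summit in 3 of 3 replicates. That band shares reads and regions with the members the word was picked from, so the value describes spread only. The reproducible set's band had 2.22 ± 0.229%, against 0.437 ± 0.182% of flanks (SD, n = 3). The weaker band had 0.810 ± 0.371%, against 0.401 ± 0.0641%, and in replicate 2 it had 0.533%, against 0.470%.

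The 36 sites had more in common than the word. The next base was A or G in 34 of them, the 3 bases after that were AAA in 27, and the base before the word was A or G in 32. They lay in introns in 23 cases and in intergenic sequence in 11, beside 1252 and 541 of all 1979 members away from promoters. All 3 replicate lists covered 29 of the 36, beside 77.8% of all members. These placements were close to those of members in general and were not tested. At hth (rank 3997) the relative signal was 1.40, 1.08 and 0.963 in replicates 1, 2 and 3. At Itpr (rank 4045) it was 1.05, 1.60 and 1.00. At cpo, which encodes the RNA-binding protein Couch potato, it was 0.824, 0.792 and 0.676. The means at hth, Itpr and cpo were 1.15, 1.22 and 0.764, where 1 is the median over members covered in all 3 lists. These sites were picked after their values were seen, and members with and without the word were not compared by signal. Unlike the DRE and the M1BP motif, which peaked within 50 bp of the summit, the word was spread over about 150 bp to each side, with 19, 18 and 19 matches in the bins from -50, 0 and 50 bp. No factor is named for it here.

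**Figure D5:**
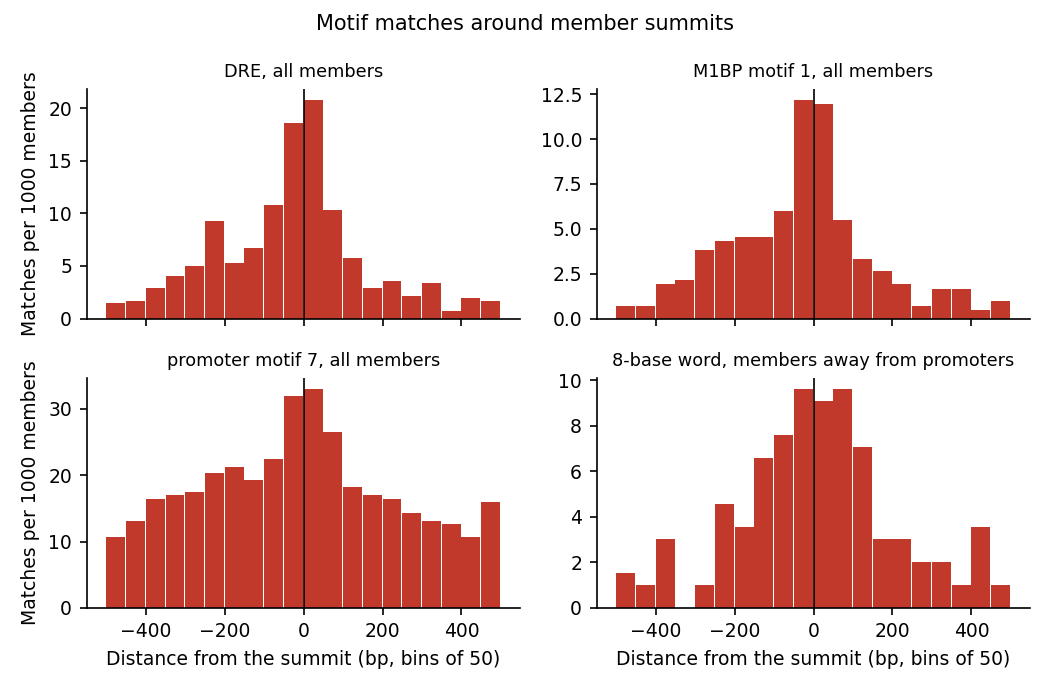
Matches per 1000 members (y axis) in bins of 50 bp by distance from the summit (x axis) for the DRE, the M1BP motif and promoter motif 7 in all members and for the word CACTGAGA in members away from promoters. The DRE and M1BP panels peak in the bins next to the summit; the word's panel is broad, at 9.60, 9.10 and 9.60 matches per 1000 members in the bins from -50, 0 and 50 bp.

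Members added many genes to those near a reproducible summit. Of 13945 coding genes, 3905 (28%) had a reproducible summit within 500 bp of a TSS and 2567 had a member summit there. Both applied to 703 genes, and 1864 genes, 13.4% of all coding genes, were reached by members only. That brought the total to 5769 (41.4%). Gene lists are described by their count beside this 13.4% and were not tested as sets. A list with many genes at reproducible summits had fewer left to be reached by members only. A member counted for every coding gene with a TSS within 500 bp, as the member at rank 5602 did for Prosbeta2 and mRpL39.

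Most patterning genes had neither a member nor a reproducible summit at a TSS. The same held for most coding genes, of which 41.4% had either. Of 24 segmentation genes, 0 had a reproducible summit, 7 (29.2%) had a member and 17 had neither. ptc, the gene of the Hedgehog receptor, came first at rank 3984 with a relative signal of 1.48, 0.936 and 1.61 in replicates 1, 2 and 3. bcd, the anterior determinant, followed with 1.39, 1.23 and 0.795, then cad, a posterior determinant, with 0.834, 1.29 and 1.18, and the gap gene Kr with 0.806, 0.940 and 1.12. The segment polarity gene en was covered in replicate 3 alone, wg, a Wnt ligand gene, in replicates 1 and 3, and the pair-rule gene opa in all 3. Each of the 7 summits was 2775 bp or more from a reproducible summit. Of 8 Hox genes, Scr and pb had a member (25%), at ranks 7522 and 7982, 0 had a reproducible summit and 6 had neither. Of 17 dorsoventral patterning genes 1 (5.88%) was reached by a member only, rho, which encodes a protease of EGF signalling, 1 had a reproducible summit and 15 had neither.

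Signalling genes were represented at 8 of 28 (28.6%), with a further 13 reached by reproducible summits. In pooled order they were foxo, Axn, Su(H), pnt, Egfr, bnl, pan and fz, of which bnl was covered in 1 replicate list and pnt, pan and fz in 2. Su(H), the transcription factor of the Notch pathway, had a relative signal of 0.900, 1.34 and 1.17 in replicates 1, 2 and 3. Axn, a scaffold of the Wnt destruction complex, had 1.19, 1.80 and 1.80, at a promoter shared with RpS28a and 574 bp from a reproducible summit. Germline genes were reached at 3 of 11: tud, vas and piwi, which act in germ plasm or the piRNA pathway.

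Genes of translation and protein turnover were split between the bands. The highest share was that of the tRNA synthetases, enzymes that charge tRNAs, with 14 of 35 reached by members only (40%) and 17 by reproducible summits, which left 4 reached by neither. AlaRS had a relative signal of 1.15, 1.20 and 1.69, and ThrRS had 1.28, 1.74 and 0.509, in replicates 1, 2 and 3. CysRS-m, TrpRS-m and LeuRS-m were next in pooled order. Cytoplasmic ribosomal protein genes were mostly reproducible, at 74 of 92, and 11 (12%) were reached by members only, led by RpS6 with 1.05, 1.06 and 1.46. Mitochondrial ribosomal protein genes had 16 of 73 (21.9%) reached by members only, proteasome genes 10 of 48 (20.8%) and translation initiation factors 6 of 44 (13.6%). Rpn10, a ubiquitin receptor of the proteasome, had 1.17, 1.58 and 1.15 and was the first of its list. Among 17 genes of insulator and promoter factors, mod(mdg4), Ibf2 and Ibf1 were reached by members only, and the last pair are neighbours. Cell cycle genes had 3 of 25 (CycD, fzr and Mcm6), heat shock genes 2 of 15 and muscle genes 2 of 14.

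Of 17 neural development genes 0 were reached by members only and 4 by reproducible summits, 1 of which also had a member. The chemoreceptor and cuticle lists had no member: the counts were 0 of 59 odorant receptor genes, 0 of 60 gustatory receptor genes and 0 of 120 cuticle protein genes. Reproducible summits reached 0, 2 and 1 genes of these lists.

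Some genes held several members in their introns. Among the 1252 intronic members, those in coding genes were spread over 804 genes, of which 540 held 1 and 24 held 5 or more. The 6 genes with most were sbb, hth, Svil, shn, SKIP and tara. sbb held 12 (15.2 per 100 kb of gene), with 4 reproducible summits in its introns. hth held 11 (8.33 per 100 kb) with 1. shn, a zinc finger gene of the BMP pathway, held 8 (13.7 per 100 kb), as did Svil (6.58). SKIP held 7 (4.31 per 100 kb), and the shorter tara also held 7 (20.2 per 100 kb). Another 9 genes held 6 each, between 1.52 per 100 kb at kirre and 20.1 at Pli. The counts therefore did not follow the rates, and no test was made. No rate over all introns was taken. Members of all classes ran at 31.0 per Mb on 3R, which holds SKIP and tara, and at 28.2 per Mb on the X, which holds kirre. These arm rates are per Mb and cover all classes. The gene rates are per 100 kb and cover intronic members, so they are not directly comparable.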

How the data were processed

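ChIP-seq of GFP-tagged CG17186 was measured in 3 biological replicates of 1 group. Per the deposited read-me tables, the authors called relaxed peak lists on each replicate and on the pooled replicates and applied IDR. The sources used here name no aligner, caller or IDR threshold. The authors' signal per peak, on the caller's unnamed scale, was used to rank and describe peaks. The −log10 q-value was read as the authors deposited it and entered no test. Depth is unknown, and between replicates signals were compared by rank, or after division by the replicate's median over members covered in all 3 lists. For the coefficient of variation of reproducible peaks, the median was taken over those peaks.

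The members, gene lists and motifs were chosen with earlier results of these data known. Summits were assigned to promoters (500 bp around any TSS), 5′ UTRs, coding exons, 3′ UTRs, other exons, introns or intergenic sequence, in that order, from the Ensembl release 115 annotation, with transposable elements left out. Genome sequence was the RefSeq dm6 assembly, which the files' coordinates fit. Lists shared a peak when they overlapped by at least 1 bp. Named members were, by rule, the 12 at coding promoters with at least 1 gene within 500 bp that had no reproducible summit (each is called by its nearest gene, which can have one), the 6 in introns and the 6 in intergenic sequence with the largest mean relative signal, list genes reached by members only (up to 5 a list by rank), the peaks at both edges and the best-ranked member per called motif outside 1 chromosome arm. Further named members were chosen after their values were seen: the same ranking without members that overlap a reproducible peak, 2 more segmentation genes and 3 more signalling genes, the intron hosts and the CACTGAGA sites. The peak lists on dm3 could not be matched to members one by one, since 4165 of 4177 members with a match had several, and only their count is given. Scripts used Python 3.11.15, numpy 2.4.6, scipy 1.17.1, pandas 2.3.3 and matplotlib 3.10.9. The functions were tested on simulated windows with planted words. Sequences on 1 chromosome arm are not reported here.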

Additional observations from a re-analysis of the deposited data

How the results depend on the processing

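No paired analysis was possible because the samples form 1 group; rank bands were set side by side within each replicate. Of 99 alternative values of the main results, 83 counted as unchanged, by rules that differed between results. A tested difference had to keep its direction and side of the threshold. A count had to stay within a fixed ratio of its main value. Differences between replicate ranks had to stay within their SD, and the share in all replicate lists within its interval. The difference in X share from the reproducible set (-2.44 points) was no longer past the threshold for the stronger members (-1.05, adjusted p = 0.64, Fisher's exact test, as below), without members that overlap a reproducible peak (-2.20, 0.07) or with 1 summit per interval (-2.44, 0.05). The intron difference from weaker peaks was -2.48 points (0.062) for the weaker members. The share of members in all replicate lists, 77.8%, was 80.1 to 93.6% with 1 replicate left out, 71.4% with an overlap of at least 50%, 25.7% with lists of the 8000 strongest peaks, and 46.6% with a summit within 100 bp, which was added after seeing the data. Motifs called at summits numbered 5, against 1 away from promoters, 7 within 100 bp of the summit and 8 with flanks at 1000 bp. Within 100 bp TATAAA was called (3.31 points, adjusted p = 0.0059, exact McNemar test). So was the CTCF core, lower at the summit (-2.29 points, 0.00088). Words called numbered 40, against 84 with flanks at 1000 bp. Motif differences called were 8 from the reproducible set (AACAGCAC, picked from the strongest peaks, among them) and 6 from weaker peaks, against 0 and 1 away from promoters. There the E-box and AACAGCAC differences from the reproducible set reversed (0.79 and 0.13 points), and TATAAA against weaker peaks reversed at promoters (-0.56 points). The causes were not tested. Members with a possible match in the dm3 reproducible list, by signal, numbered 380 within 1% and 588 within 5%. Since 4184 members were 410 bp wide, such a match rested mainly on chromosome and signal, and signal chose the members. The counts therefore show for no member that it was reproducible on dm3. Unknown depth limits what the shared lists can show.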
